A study of Mus musculus with 8 samples.

Results

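The subject is the stage dependence of the Tet3 oocyte effect: for each gene, the difference between embryos from Tet3-null and wild-type oocytes at the blastocyst stage, minus the same difference at the 2-cell stage. Values were FPKM, read counts scaled by transcript length and library size, taken as log2(FPKM + 1). The members were the 13370 genes, of 23234 listed, that reached 1 FPKM in 2 or more of the 8 libraries. Of the rest, 9147 stayed below that level, and 717 entries whose names start with Mir or Snor were left out by rule. All 8 libraries of the series entered the comparison. A positive stage difference means that Tet3-null embryos stood higher, relative to wild-type, at the blastocyst stage than at the 2-cell stage.

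Each of the 4 groups held 2 libraries. Tet3-null oocytes came from superovulated females with a floxed Tet3 allele, a null allele (f/-) and the Zp3-Cre transgene, whose promoter is active in growing oocytes. Wild-type oocytes came from f/f females, and the labels do not say whether these carried Cre. All oocytes were fertilized in vitro with CAST/EiJ sperm, so that each embryo carries a paternal Tet3 allele. Zygotes with 2 pronuclei were cultured in KSOM, and pools of 10 embryos were lysed at 30 h (2-cell) or pools of 7 at 96 h (blastocyst). cDNA was amplified by the SMARTer low-input method and sequenced with no record of strand. Whether replicate libraries trace to different females is not in the labels, so the p-values measure library spread alone, which may be technical.

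Tet3 belongs to the TET enzymes, which oxidize 5-methylcytosine, and is the member that the oocyte supplies to the zygote. The 2-cell stage is when the mouse embryo starts bulk transcription from its own genome while maternal RNA is degraded. By the blastocyst stage the maternal stores are gone, and the embryo has formed trophectoderm, the outer layer that makes the placenta, and an inner cell mass, which gives rise to epiblast and primitive endoderm. Comparing the stages asks which early differences persist.

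Several markers followed the labelled stages, and others did not. Zscan4d, a 2-cell gene, was at 77.3 to 150.1 FPKM in the 2-cell libraries and at 0 in all 4 blastocyst libraries. Krt18, a trophectoderm keratin, was at 1985 to 3138 FPKM in blastocysts and at 4.27 to 11.9 at 2 cells, whereas Sox17, a primitive endoderm marker, did not exceed 1.30 FPKM in any library. Among the others, the epiblast marker Fgf4 was at 56.9 and 58.9 FPKM in wild-type 2-cell embryos and at 4.11 and 2.09 in wild-type blastocysts. Gata4, of the primitive endoderm, was at 12.1 and 16.4, then at 4.23 and 2.91. Nanog, of the epiblast, was at 133.6 to 166.8 FPKM at 2 cells and at 114.4 to 144.7 in blastocysts. Of the markers of other cells, Fshr, Ptprc and Hbb-b1 stayed at or near 0 in every library. Pecam1 was at 1.58 to 9.75 FPKM and Prm2 at 1.84 to 17.1. The Tet3-null 2-cell replicate 2 stood apart: 7101 genes were at 0, against 5370 to 6080 in the other libraries, and the summed level of 7 Y-linked genes was 0.166 FPKM, against 31.7 in its partner and 48.5 and 49.1 in wild-type. In blastocysts the same sum was 101.9 and 94.5 in Tet3-null, against 54.8 and 49.7 in wild-type. Across genes, Pearson's r between the 2 libraries of a group was 0.943 for Tet3-null and 0.963 for wild-type at 2 cells, and 0.982 and 0.977 for blastocysts. The 2-cell side of each stage difference was thus the noisier one.

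In the pairs of levels below, the wild-type libraries come first, unless the text names the order. Tet3 itself was at 10.8 and 7.54 FPKM in wild-type, against 3.28 and 4.41 in Tet3-null 2-cell embryos. In blastocysts it was at 0.957 and 0.459 against 0.519 and 0.412. The groups did not overlap at 2 cells and overlapped in blastocysts, where the transcript was near its floor in both genotypes. Its stage difference was 0.85 ± 0.35 (SE, limma, adjusted p = 0.338). Which exons the deletion removes is not in the labels, so the FPKM of the whole gene is an incomplete check. Tet1 had a stage difference of 0.73 ± 0.25 (adjusted p = 0.278) and Tet2 of -0.29 ± 0.25 (adjusted p = 0.633). Tet2, at 1.17 and 1.06 FPKM in wild-type 2-cell embryos and 60.9 and 49.1 in blastocysts, was the most abundant of the 3 by 96 h.

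Across all members the Tet3-null difference was wider at 2 cells than in blastocysts, but the 2-cell libraries were also the noisier ones. The part of library noise in that width was not tested. The median member was at -0.18 at 2 cells and -0.016 in blastocysts on the log2(FPKM + 1) scale, and the median stage difference was 0.14. Median-of-ratios scaling of the libraries within each stage moved that median to 0.010, and quantile normalization moved it to 0.0054, so the values of single genes are read beside it. In limma's moderated test with Benjamini-Hochberg adjustment over the whole table, 284 members were called low (2.12%) and 77 high (0.576%) in Tet3-null 2-cell embryos at an adjusted p below 0.05. Under those scalings the calls were more evenly split, with 87 low of 170 and 105 low of 190. In blastocysts 1 was called (0.00748%), Hprt. The fit used the same spread estimate of a gene at both stages. With limma array weights, which weight libraries by their spread, 4 members were called at 2 cells and 66 in blastocysts. By size alone, meaning a difference of at least 1 with no overlap of libraries, 637 were lower (4.76%) and 147 higher (1.1%) at 2 cells, against 50 lower (0.374%) and 28 higher (0.209%) in blastocysts, 78 in all (0.583%). Non-overlap by itself was common at both stages: 47.8% of members at 2 cells and 44.4% in blastocysts.

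The stage difference itself was called for 6 members (0.0449%): 5 positive (0.0374%) and 1 negative (0.00748%). At an unadjusted p below 0.05, 1920 members passed (14.4%), of which 1407 were positive (10.5%) and 513 negative (3.84%). Under median-of-ratios scaling these were 953 and 802, and under quantile normalization 974 and 814. The median standard error of a stage difference was 0.32 on the log2 scale, with 2 libraries a group. The count depended on single libraries. Without Tet3-null 2-cell replicate 1 it was 1689, of which 5 were among the 6; without replicate 2, it was 14, of which 3 were among the 6. Leaving out any of the other 6 libraries left between 0 and 2. When the Mir and Snor entries, 13 of which were called, were taken out of the fit, 1 member remained called, Defb13.

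**Figure D1:**
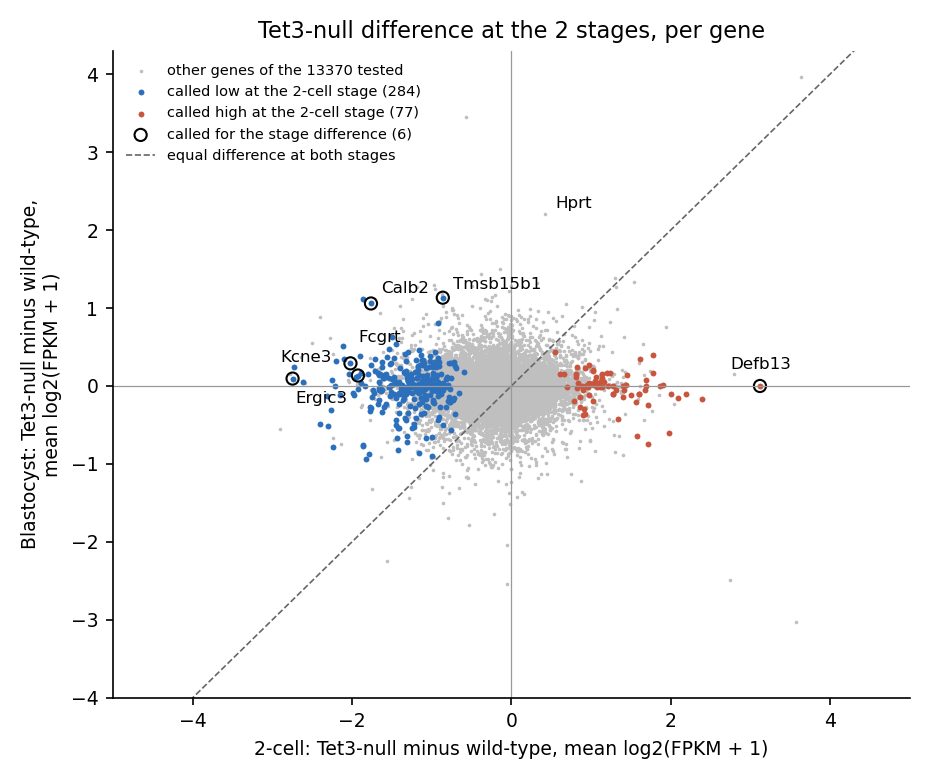
Each point is 1 of the 13370 members. The x axis is the Tet3-null minus wild-type difference at the 2-cell stage and the y axis the same in blastocysts, both in mean log2(FPKM + 1) over 2 libraries a group. Blue and red points, the 284 members called low and the 77 called high at 2 cells, lie left and right of 0 by choice and mostly near 0 on the y axis. Circles mark the 6 members called for the stage difference, and the dashed line marks equal differences at both stages.

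Ergic3, a protein that cycles between the endoplasmic reticulum and the Golgi, was the called member that was low at 2 cells and at a high, similar level in both genotypes later. It was at 49.9 and 49.9 FPKM in wild-type 2-cell embryos and at 14.3 and 10.7 in Tet3-null. By the blastocyst stage it was at 168 and 168 in wild-type, against 184 and 186 in Tet3-null. The 2-cell groups were far apart, and in blastocysts Tet3-null stood slightly above wild-type. The stage difference was 2.06 ± 0.22 (SE, limma, adjusted p = 0.0271), made of -1.92 at 2 cells and 0.13 in blastocysts (95% interval -0.23 to 0.50). With single libraries left out the difference stayed between 1.87 and 2.25. It was called without either Tet3-null 2-cell library, and adjusted p-values reached 0.263 without one of the other 6.

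Calb2 (calretinin, a calcium-binding protein) changed sides. Wild-type 2-cell embryos had 2.88 and 1.97 FPKM, and it was listed at 0 in both Tet3-null libraries. In blastocysts the Tet3-null libraries were the higher ones, at 6.21 and 5.46 FPKM against 1.96 and 2.62. The stage difference came to 2.82 ± 0.29 (adjusted p = 0.0243). Tmsb15b1, of the thymosin beta family of actin-monomer-binding peptides, showed the same turn at falling levels. It was at 49.1 and 53.8 FPKM in wild-type, against 25.6 and 30.4 in Tet3-null at 2 cells, and at 2.17 and 1.94 against 5.74 and 5.65 in blastocysts. The difference between the stages was 1.99 ± 0.23 (adjusted p = 0.033). It has near-identical neighbouring copies, and how shared reads were divided is not given in the sources used here, so its level is uncertain.

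Fcgrt and Kcne3 differed at 2 cells and were nearly silent later in both genotypes. Fcgrt (the neonatal Fc receptor) was at 21 and 24.4 FPKM in wild-type, against 5.28 and 4.4 in Tet3-null 2-cell embryos. At 96 h it was at 0.811 and 0.646 against 1.22 and 1.01. Over the stages this made a difference of 2.31 ± 0.26 (adjusted p = 0.033). Kcne3, a regulatory subunit of voltage-gated potassium channels, was at 17.1 and 13.9 FPKM in wild-type, against 1.97 and 1.02 in Tet3-null at 2 cells, and did not exceed 0.101 FPKM in any blastocyst library. For this gene the stage difference was 2.84 ± 0.32 (adjusted p = 0.033). For these genes a return to the wild-type level cannot be read, since there was little transcript in blastocysts to compare.

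Defb13, a beta-defensin, an antimicrobial peptide gene, was the only called member with a negative difference. It was listed at 0 in 6 libraries and at 8.92 and 6.62 FPKM in the Tet3-null 2-cell libraries. It thus passed the filter only through the group where it was high, so its call cannot be separated from that choice. The stage difference was -3.12 ± 0.26 (adjusted p = 0.00619). Where a group is listed at 0 the pseudocount sets the size: with pseudocounts of 5 and 0.1 the difference was -1.35 and -6.28 for Defb13, 1.14 and 5.95 for Calb2, and, for Kcne3 with its low blastocyst levels, 1.68 and 4.07. Defb13 was called in 12 of the 16 alternatives that kept it in the table. Calls of the 5 positive members were held in 6 to 9 of 18 alternatives each, and the sign of all 6 was the same in every one.

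**Figure D2:**
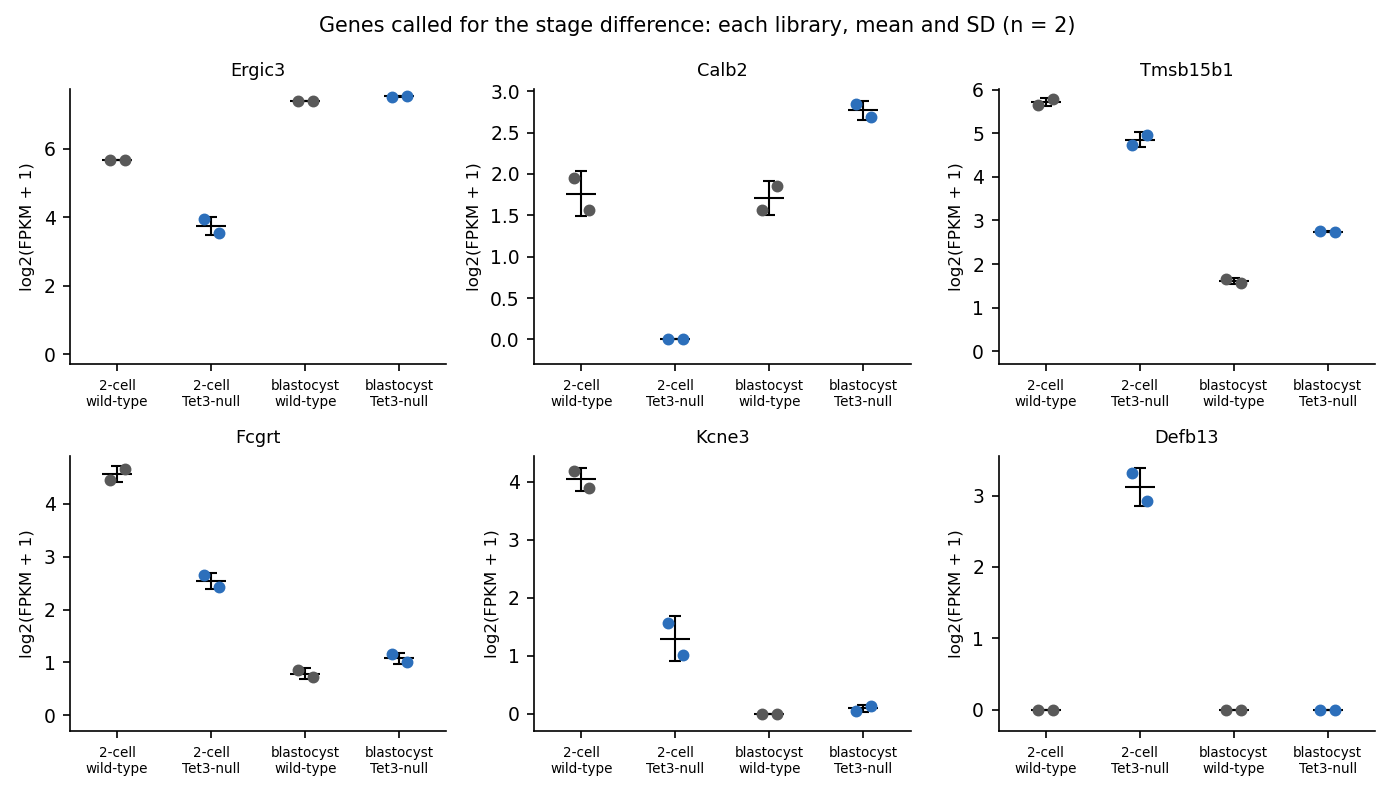
Each panel is a member called for the stage difference. The y axis is log2(FPKM + 1), points are single libraries, and horizontal bars with whiskers give the mean and SD of 2 libraries. Ergic3 is low in Tet3-null at 2 cells and level in blastocysts; Calb2 and Tmsb15b1 change sides; Fcgrt, Kcne3 and Defb13 are near 0 in blastocysts.

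The upstream sequences of 3 of these genes are shown because Tet3 acts on methylated cytosine, which in mammalian DNA sits mostly in CG pairs. They stand for the gene that was at a similar level in blastocysts (Ergic3), the called gene with the deepest 2-cell difference among the positive ones (Kcne3) and the negative one (Defb13). Each is the 250 bases before the gene start, read 5′ to 3′ on the gene's strand, from RefSeq in build GRCm38.p6, with every CG in capitals. Ergic3 lies at chr2:156007778-156008027 (+), Kcne3 at chr7:100176420-100176669 (+, the first of 2 listed starts) and Defb13 at chr8:21946505-21946754 (+).
Ergic3: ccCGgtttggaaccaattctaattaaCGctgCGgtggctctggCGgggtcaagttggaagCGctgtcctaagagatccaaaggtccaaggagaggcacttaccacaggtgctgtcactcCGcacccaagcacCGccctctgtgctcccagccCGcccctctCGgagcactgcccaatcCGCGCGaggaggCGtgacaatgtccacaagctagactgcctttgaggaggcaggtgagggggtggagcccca
Kcne3: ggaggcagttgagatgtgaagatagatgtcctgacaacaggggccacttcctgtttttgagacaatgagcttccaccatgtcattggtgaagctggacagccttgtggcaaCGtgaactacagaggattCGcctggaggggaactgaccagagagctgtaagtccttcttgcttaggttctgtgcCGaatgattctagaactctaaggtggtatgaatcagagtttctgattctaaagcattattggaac
Defb13: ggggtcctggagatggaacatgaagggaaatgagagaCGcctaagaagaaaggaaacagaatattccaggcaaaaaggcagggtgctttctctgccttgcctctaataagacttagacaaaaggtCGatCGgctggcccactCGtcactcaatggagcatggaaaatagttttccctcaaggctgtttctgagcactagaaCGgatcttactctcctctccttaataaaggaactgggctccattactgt
The Ergic3 window holds 13 CG pairs, that of Kcne3 3 and that of Defb13 5. The windows of Fcgrt and Tmsb15b1 hold 5 and 4, and Calb2 was not matched. Over all 32851 windows of that length in the table the median was 6, and 92.1% held at least 1 CG. Of the 5 matched called genes, Ergic3 alone lay above that median. A comparison of larger gene sets is void, since 9464 of 13370 members (70.8%) matched a window by name. DNA methylation was not analysed here.

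The broader pattern was carried by the 284 members called low in Tet3-null 2-cell embryos. They were chosen on the 2-cell difference, whose median was -1.23, and are described on the blastocyst difference. The choice was not independent of the blastocyst libraries, since the spread behind each call was estimated over all 8. Without any 1 blastocyst library, 4 to 9 genes were called low at 2 cells. Of them 70 were under 1 FPKM in both blastocyst groups (24.6%, against 19.2% of all members), leaving 214 to compare. The median blastocyst difference over the 284 was 0.0029, against -0.016 over all members. Taken library by library against the wild-type mean, the median was -1.12 and -1.28 in the Tet3-null 2-cell libraries and 0.0014 and -0.0097 in the Tet3-null blastocyst libraries. By sign, 104 of the 214 were lower and 110 higher in Tet3-null blastocysts. No member of the 284 passed the test in blastocysts at an adjusted p below 0.05, against 1 of all 13370 members (0.00748%). With so few calls, their absence from the 284 does not show recovery.

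A gene was counted as recovered when the 95% interval of its blastocyst difference lay within -1 and 1. That held for 186 of the 214 (86.9%), against 79.9% of all 10801 members of at least 1 FPKM in a blastocyst group, so the share was close to the background. By the estimate alone, 186 of 214 (86.9%) lay within 0.5 of 0, against 91.4% of all. Intervals wholly below 0 were seen for 22 (10.3%, background 4.29%) and wholly above 0 for 9 (4.21%, background 2.17%). These classes overlap with the recovered one. Of the 186, 172 spanned 0, 10 lay wholly below 0 and 4 wholly above 0, so recovered does not mean equal to wild-type. Among the 8634 such genes of all members, 159 lay wholly below 0 and 79 wholly above. Interval widths share their spread estimate with the 2-cell call, so narrow intervals are favoured by the choice. Without Tet3-null 2-cell replicate 1 the genes called low numbered 2599, of which 2239 were expressed in blastocysts and 2087 of these recovered; without wild-type 2-cell replicate 2 none was called low.

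**Figure D3:**
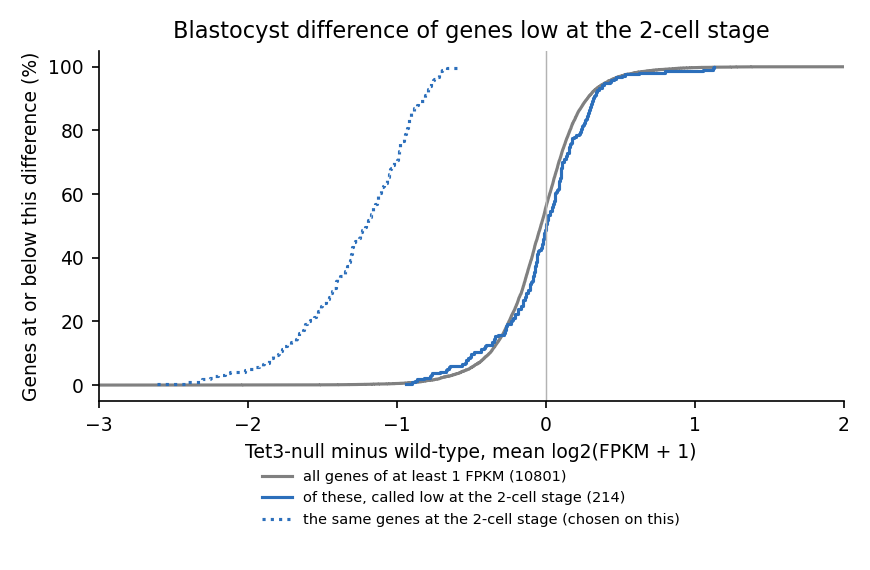
Cumulative share of genes (y axis, %) at or below a given Tet3-null minus wild-type difference (x axis, mean log2(FPKM + 1)). The solid blue line, the 214 genes called low at 2 cells and expressed in blastocysts, runs beside the grey line of all 10801 expressed members and crosses 0 near the middle. Its lower tail lies slightly above the grey line. The dotted line shows the same 214 genes at the 2-cell stage, where they were chosen.

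Among the 175 genes called low at 2 cells with at least 5 FPKM in wild-type blastocysts, those with the deepest 2-cell differences included galectins, a peptide hormone and cytoskeleton-binding proteins. Lgals1 (galectin-1, a secreted carbohydrate-binding protein) was at 126 and 144 FPKM in wild-type, against 23.6 and 29.2 in Tet3-null 2-cell embryos. In blastocysts it was at 1001 and 721 against 797 and 753, and the Tet3-null values lay between the wild-type ones. Its stage difference was 2.18 ± 0.27 (adjusted p = 0.0543), just outside the threshold. Nppb, which encodes brain natriuretic peptide, was at 1.96 and 3.63 FPKM in wild-type 2-cell embryos and listed at 0 in both Tet3-null libraries. By the blastocyst stage it was at 23.5 and 20.9 in wild-type, against 24.6 and 21.2 in Tet3-null, with overlapping ranges. The stage difference came to 1.93 ± 0.34 (adjusted p = 0.116).

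The clone-named transcript 1700008P20Rik was likewise lower at 2 cells and overlapped between genotypes later. It was at 2.54 and 4.87 against 0 and 0.38 FPKM at 2 cells, wild-type before Tet3-null, and at 12.7 and 7.84 against 10.4 and 11.3 in blastocysts. Of the other genes among the 10 deepest, Lgals3, Gata2, Akap8l and Smtn stayed lower in blastocysts and Tppp3 changed sides.

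A minority of the genes low at 2 cells also lay lower in blastocysts. With at least 5 FPKM in wild-type blastocysts, 21 had a blastocyst interval wholly below 0. None of the 21 was called in blastocysts or for the stage difference, against 0.00748% and 0.0449% of all members. Gata2, a transcription factor of the trophectoderm lineage, was at 31.7 and 28.8 FPKM in wild-type, against 8.59 and 6.73 in Tet3-null 2-cell embryos. In blastocysts it was at 50.3 and 48.3 against 27.5 and 29.96, so that the groups were apart at both stages. The difference was -1.86 ± 0.16 at 2 cells and -0.76 ± 0.16 in blastocysts, with a stage difference of 1.10 ± 0.23 (adjusted p = 0.138). Fewer trophectoderm cells and less transcript per cell cannot be told apart in pooled embryos.

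Rabac1, a prenylated Rab acceptor of the Golgi, was at 53.2 and 56 FPKM in wild-type, against 23.7 and 24 in Tet3-null 2-cell embryos. By the blastocyst stage it was at 169.9 and 138 against 81.1 and 86.8. Its difference was -1.16 at 2 cells and -0.86 in blastocysts, and the stage difference of 0.30 ± 0.21 did not pass the test (adjusted p = 0.545). Gm4926, a predicted gene, had -0.996 at 2 cells and -0.89 in blastocysts, the most even pair of the 21. The sign of its stage difference of 0.10 turned in 5 of 18 alternatives, among them both library scalings. The galectin Lgals3 kept a smaller part of its 2-cell difference: 18.6 and 21.3 against 2.9 and 3.58 FPKM at 2 cells, wild-type before Tet3-null, and 53.4 and 49.99 against 31.2 and 41.7 in blastocysts.

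Ssr4, a subunit of the translocon-associated complex, was at 37.6 and 35.1 against 15.3 and 15.4 FPKM at 2 cells and at 503 and 528 against 379 and 394 in blastocysts, wild-type first. Bcap31, a chaperone of the endoplasmic reticulum membrane, was at 324 and 307 against 198 and 188 and then at 526 and 516 against 399 and 414. Dolk (dolichol kinase, needed for N-glycosylation) had differences of -1.43 at 2 cells and -0.67 in blastocysts. Gm2a, the lysosomal GM2 activator, had -1.22 and -0.52; Mrpl37, of the mitochondrial ribosome, -1.45 and -0.50; and Etfa, an electron transfer flavoprotein subunit, -0.86 and -0.50. In each the blastocyst difference was the smaller one.

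The others of the 21 were Akap8l, Smtn, Spsb4, Maged1, Gipc1, Nle1, Adam15, Fbln1, Ubac2, Txndc15 and Dkkl1, with blastocyst differences from -0.94 (Smtn, smoothelin, an actin-binding protein) to -0.40 (Txndc15). At the edge of the rule, the blastocyst interval of Txndc15 ended at -0.0092, and that of Stk19, the nearest gene outside it, ended at 0.015. Ssr4, Bcap31 and Maged1 are X-linked. In the same blastocysts Xist was at 16.6 and 14.6 FPKM in wild-type, against 6.36 and 4.64 in Tet3-null, and the Y-linked sum was higher in Tet3-null. The part of the sex makeup of the pools in these values was not tested.

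The reverse at the 2-cell stage was a higher level in Tet3-null embryos, seen for 77 called members. Of these, 40 (51.9%, against 19.2% of all members) were under 1 FPKM in both blastocyst groups. Of the 37 that were expressed, 34 (91.9%, background 79.9%) had a blastocyst interval within -1 and 1, and the median blastocyst difference over the 77 was 0. With at least 5 FPKM in wild-type blastocysts, the 5 largest 2-cell rises were in Vaultrc5, Schip1, Fgl1, Tac2 and E2f6. No gene passed the size rule as higher at 2 cells and lower in blastocysts.

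Vaultrc5, a short vault RNA whose FPKM is unstable at its length, was at 61.7 and 77.3 FPKM in wild-type, against 278 and 485 in Tet3-null 2-cell embryos. At 96 h it was at 5.88 and 8.49 against 6.54 and 5.82, with overlap. Schip1, which encodes a schwannomin-interacting protein, was at 4.81 and 8.91 against 25.7 and 32.4 FPKM at 2 cells and at 6.77 and 5.54 against 3.68 and 3.69 in blastocysts, wild-type first, so that the order of the genotypes turned. Over the stages this made a difference of -2.58 ± 0.39 (adjusted p = 0.0984). Tac2, the neurokinin B precursor, turned likewise: 28.7 and 23.9 against 62.1 and 103 FPKM at 2 cells, then 9.01 and 8.78 against 5.64 and 5.1. For this gene the stage difference was -2.21 ± 0.35 (adjusted p = 0.103). Fgl1, a fibrinogen-like secreted protein, was at 2.67 and 2.4 against 11.7 and 10.4 FPKM at 2 cells and overlapped in blastocysts (5.63 and 4.4 against 7.03 and 4.66). E2f6, a transcriptional repressor, had a 2-cell difference of 1.45 ± 0.28 and a blastocyst difference of 0.14 ± 0.28.

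Besides Defb13, the negative stage differences with the smallest p-values did not pass the adjusted threshold. They included Plac8, Mgst3, Gng5, Sec61b and Prl8a2 as well as Schip1, Tac2, Vaultrc5 and Xlr4a, with adjusted p-values from 0.0984 to 0.116. Sec61b, a subunit of the protein translocon, was at 165 and 153 FPKM in wild-type, against 271 and 309.7 in Tet3-null at 2 cells, and at 422 and 418 against 383 and 377 in blastocysts. Mgst3, a microsomal glutathione transferase, was at 202 and 185 against 392 and 344, then at 377 and 443 against 294 and 345. Gng5, a G protein gamma subunit, had differences of 0.86 at 2 cells and -0.27 in blastocysts. All 3 were expressed above 150 FPKM in every library, with groups that did not overlap at 2 cells and lay in the opposite order later. Prl8a2, of the prolactin family of the placenta and decidua, was at 40.4 and 33.1 FPKM in wild-type, against 101 and 94.6 in Tet3-null 2-cell embryos and listed at 0 in every blastocyst library.

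Genes past the size rule in blastocysts were fewer. Of the 50 members lower by the size rule in Tet3-null blastocysts, 3 were also lower by it at 2 cells (Alkbh6, Sytl3 and Sparc), and none was higher. Their median 2-cell difference was -0.25, against -0.18 for all members. Of the 28 higher in blastocysts, 5 were lower at 2 cells and 2 higher (Xlr and Gm773), with a median 2-cell difference of -0.32. Over all members, 4.76% were lower and 1.1% higher at 2 cells by the size rule. Of the 34 lower members expressed at 2 cells, 10 (29.4%, background 58.8%) had a 2-cell interval within -1 and 1, and 9 (26.5%, background 20.4%) had one wholly below 0. Of the 20 higher members expressed at 2 cells, 3 (15%) had a 2-cell interval within -1 and 1. For 8 (40%) it lay wholly below 0 and for 2 (10%, background 5.97%) wholly above.

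Among the lower ones were genes of the primitive endoderm list. Lama1, the laminin alpha 1 chain, was at 4.55 and 4.37 FPKM in wild-type, against 1.31 and 0.943 in Tet3-null blastocysts, and no higher than 0.256 FPKM in any 2-cell library. Serpinh1, a collagen chaperone, was at 20.3 and 13 in wild-type, against 6.9 and 4.22 in Tet3-null blastocysts and no higher than 0.143 at 2 cells. Aqp8, a water channel, was at 33.2 and 36.8 against 16.2 and 12.1 in blastocysts and no higher than 0.0912 FPKM at 2 cells. Non-overlap was part of the rule that chose these genes. Their stage differences were -1.34 ± 0.25, -1.50 ± 0.40 and -1.20 ± 0.28, with adjusted p-values of 0.12, 0.199 and 0.162. The defining primitive endoderm marker Gata6 was at 106.5 and 96.4 FPKM in wild-type, against 108.9 and 118.6 in Tet3-null blastocysts, and Pdgfra overlapped between genotypes. Gata4, another factor of that lineage, was at 4.23 and 2.91 FPKM in wild-type, against 1.97 and 1.68 in Tet3-null blastocysts, so that its groups lay apart, as did those of 44.4% of all members. Xist, the RNA that silences an X chromosome and whose reads cannot be told from those of its antisense partner here, had a stage difference of -1.50 ± 0.30 (adjusted p = 0.129), and 4930563F08Rik, listed at 0 in all 2-cell libraries, one of -1.23.

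Among the higher ones, Hprt, the X-linked enzyme of purine salvage, was the only member called in blastocysts. It was at 283 and 377 FPKM in wild-type, against 1553 and 1469 in Tet3-null blastocysts. At 2 cells it was at 180.1 and 153 against 247 and 201, so that Tet3-null was the higher group at both stages. The blastocyst difference was 2.21 ± 0.18 (adjusted p = 0.00829) against 0.42 ± 0.18 at 2 cells, and the stage difference of 1.78 ± 0.26 did not pass (adjusted p = 0.0886). Krt14, a basal keratin, was at 0.424 and 0.86 FPKM in wild-type, against 2.55 and 4.998 in Tet3-null blastocysts and near 0 at 2 cells. Trim40, a tripartite-motif protein, was at 0.576 and 1.32 against 3.77 and 3.53 in blastocysts and between 0.572 and 0.73 FPKM in all 2-cell libraries. The clone-named 1700013H16Rik and BC055004 had blastocyst differences of 1.32 and 1.21. Krt14 and BC055004 reached 1 FPKM only in the Tet3-null blastocyst libraries. They thus passed the filter only through the group where they were high, and their rise cannot be separated from that choice.

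The 5 members past the size rule in opposite directions (0.0374%) were all lower at 2 cells and higher in blastocysts. Calb2 has been described. Tppp3, a tubulin-binding protein, was at 24.4 and 26.3 FPKM in wild-type, against 8.08 and 4.8 in Tet3-null at 2 cells, and at 7.77 and 6.16 against 13.8 and 19.1 in blastocysts. Its stage difference of 2.98 ± 0.37 was the largest of the 5, with an adjusted p of 0.0554. Ostm1, a membrane protein of lysosomes, was at 3.26 and 5.77 against 1.38 and 1.36, then at 3.06 and 4.06 against 9.92 and 10.01. Rtn2, a reticulon that shapes the endoplasmic reticulum, had a stage difference of 2.37 ± 0.45 and Cst7, a cystatin, one of 2.42 ± 0.81. At 2 cells Cst7 was at 78.3 and 19.7 FPKM in Tet3-null replicates 1 and 2 against 104 and 107 in wild-type, and its stage difference was 1.45 without replicate 2.

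**Figure D4:**
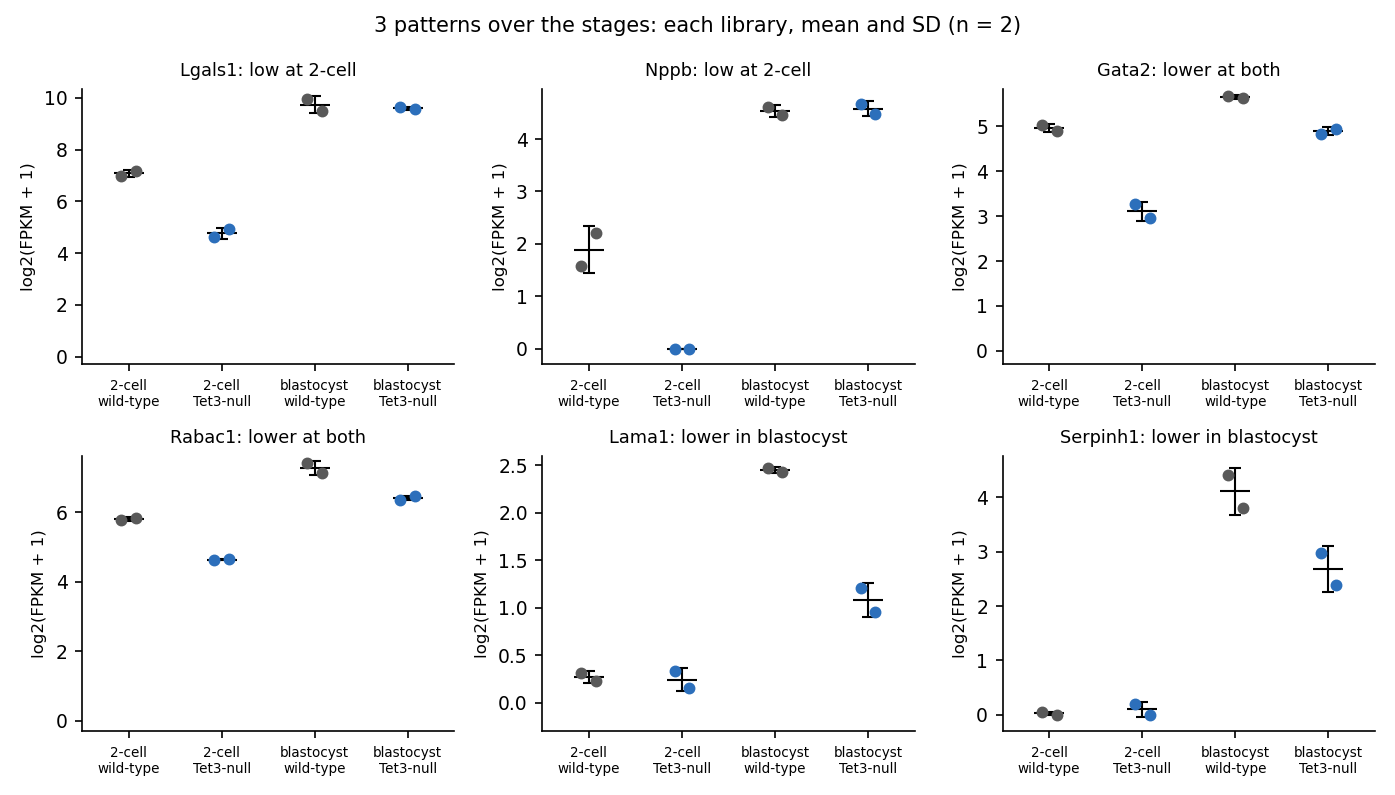
Examples of 3 courses over the stages, each with log2(FPKM + 1) on the y axis, points for single libraries and bars for the mean and SD of 2. Lgals1 and Nppb are low in Tet3-null 2-cell embryos and level with wild-type in blastocysts, Gata2 and Rabac1 are lower at both stages, and Lama1 and Serpinh1 are near 0 at 2 cells and lower in Tet3-null blastocysts.

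The same stage difference was read over 22 gene lists written from textbook knowledge. No member of any list was called for the stage difference, against 0.0449% of all members, so the lists are described by their medians and by counts at an unadjusted p below 0.05, which 10.5% of all members passed as positive and 3.84% as negative. The 46 tested genes of the lysosome list had a median of -0.49 at 2 cells, 0.019 in blastocysts and 0.50 for the stage difference, with 15 positive and 0 negative. Under the scalings of the libraries the last median was 0.40 and 0.35, against 0.010 and 0.0054 for all members, with 11 and 12 positive. With 1 library left out it was between 0.38 and 0.58, with 7 to 18 positive.

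Of the 46 lysosome genes, 6 were called low at 2 cells (background 2.12%) and none high: Ctsc, Lipa, Gm2a, Cd63, Grn and Lgmn, the last 3 named after their values were seen. Ctsc, cathepsin C, was at 124 and 152 FPKM in wild-type, against 64.7 and 47.3 in Tet3-null at 2 cells, and at 44.7 and 40.02 against 52.3 and 63.2 in blastocysts. Its stage difference was 1.73 ± 0.29 (adjusted p = 0.11). Cd63, a tetraspanin of late endosomes, was at 363 and 507 against 230.4 and 204 FPKM, then at 3286 and 3258 against 3419.6 and 3325. Lgmn (legumain, an asparaginyl protease) was at 51.6 and 56.9 against 25 and 17.2, then at 133 and 124 against 127 and 126. Grn, the progranulin gene, was at 2.49 and 2.67 against 0.8 and 0.619, then at 93.9 and 70.05 against 96.3 and 95. For all 3 the blastocyst interval spanned 0. Lipa, the lysosomal acid lipase, was no higher than 0.27 FPKM in any blastocyst library, and Gm2a was among the genes that stayed lower. Lipa reached 1 FPKM only in the wild-type 2-cell libraries. It thus passed the filter only through the group where it was high, and its call cannot be separated from that choice.

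Genes of ribosome biogenesis and early embryonic transcription, 1 mixed list (59 tested), had a median of -0.33 at 2 cells and 0.082 in blastocysts. Their stage median was 0.42, with 9 positive and 2 negative. None was called low at 2 cells. Under median-of-ratios scaling the stage median was 0.25 with 3 positive (5.08%, against 7.16% of all members), and under quantile normalization 0.33 with 6. Without Tet3-null 2-cell replicate 1 it was 0.67 with 36 positive, and without replicate 2 it was 0.13 with 5; without any 1 of the other 6 libraries 1 to 8 were positive. The 2 members with the smallest p-values went in opposite directions: Nop10, of the pseudouridylation complexes, at 0.68 ± 0.20, and Hnrnpa1, a splicing factor, at -0.70 ± 0.21. Interferon and innate sensing genes (30 tested) had a stage median of 0.40, with 7 positive and 1 negative, and of 0.22 without Tet3-null 2-cell replicate 2. Zbp1, a sensor of Z-form nucleic acid, was at 4.35 and 2.88 FPKM in wild-type, against 0.48 and 0.892 in Tet3-null at 2 cells, and at 2.74 and 2.38 against 4.79 and 3.57 in blastocysts. Isg20, an exonuclease, had 2.89 ± 0.64, mostly from the 2-cell side (-2.28).

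Epiblast and pluripotency genes (27 tested) had a stage median of 0.40, with 3 positive and 0 negative. It was 0.26 and 0.31 under the scalings, with 2 positive and 1 or 2 negative, and 0.23 without Tet3-null 2-cell replicate 2. Zfp42 (Rex1) was at 42.3 and 50.8 FPKM in wild-type, against 28.1 and 24.8 in Tet3-null at 2 cells and at 229.5 and 229 against 208 and 208 in blastocysts. Fgf4, the growth factor of the inner cell mass, was at 56.9 and 58.9 against 28.1 and 15.1 FPKM at 2 cells. In blastocysts it was at 4.11 and 2.09 against 2.21 and 3.24, with overlap. Imprinted genes (44 tested) had a stage median of 0.27, with 9 positive and 2 negative; it was 0.13 and 0.10 under the scalings, and 0.13, 0.18 and 0.17 without Tet3-null 2-cell replicate 1, Tet3-null 2-cell replicate 2 and wild-type 2-cell replicate 1. Cdkn1c, a cell cycle inhibitor expressed from the maternal allele, was at 29.7 and 27 against 12 and 6.64 at 2 cells and at 3.13 and 2.89 against 4.74 and 3.71 in blastocysts. Impact, which is expressed from the paternal allele, was at 17.3 and 21.4 against 7.14 and 5.57, then at 58.3 and 59.4 against 57.8 and 68.1. FPKM does not separate the alleles.

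Trophectoderm genes (51 tested) had no common direction of the stage difference, with a median of -0.00027, 9 positive and 6 negative. Their medians at the stages were both below 0: -0.24 at 2 cells and -0.25 in blastocysts, against -0.18 and -0.016 for all members. In blastocysts 3 were lower by the size rule (background 0.374%) and none higher. The stage median was -0.066 and -0.16 under the scalings, and 0.12 and -0.071 without Tet3-null 2-cell replicates 1 and 2. The positive stage differences of the list were led by Lgals1 and Lgals3. On the other side, the lineage factor Gata3, named after its values were seen, was at 5.28 and 5.26 FPKM in wild-type, against 9.26 and 12.3 in Tet3-null at 2 cells and at 239.8 and 221 against 184 and 172 in blastocysts. The stage difference came to -1.27 ± 0.23 (adjusted p = 0.12), opposite in sign to that of Gata2. The blastocyst keratins Krt8 and Krt18 were lower in both Tet3-null blastocyst libraries, with Krt8 at 570.9 and 527 FPKM against 1078 and 958 in wild-type. Eomes was lower too, at 4.83 and 5.82 FPKM against 10.9 and 12.7 in wild-type. Cdx2 overlapped between genotypes, at 7.79 and 5.67 FPKM in Tet3-null against 9.21 and 6.6 in wild-type blastocysts.

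Primitive endoderm genes (20 tested) differed from the rest on the blastocyst side, with a median of -0.41 there against -0.057 at 2 cells. None was positive and 5 were negative at an unadjusted p below 0.05, and 4 were lower in blastocysts by the size rule (Lama1, Serpinh1, Aqp8 and Sparc). The median of single-gene stage differences was -0.052, and -0.14 and -0.20 under the scalings. With 1 library left out it ran from -0.17 (without Tet3-null blastocyst replicate 2) to -0.043 (without wild-type blastocyst replicate 1), and in the other 6 cases it was between -0.17 and -0.099. Oocyte and maternal-effect genes (55 tested) had the largest negative stage median of the 22 lists, -0.21, with 1 positive and 9 negative. It was -0.40 and -0.22 under the scalings, -0.34 and -0.091 without Tet3-null 2-cell replicates 1 and 2, and -0.36 and -0.14 without wild-type 2-cell replicates 1 and 2. It came from the 2-cell side, at 0.31 against 0.0052 in blastocysts, where 36 of the 55 were under 1 FPKM in both groups. E330034G19Rik rose from 943 and 819 FPKM in wild-type to 1827 and 2226 in Tet3-null 2-cell embryos and was no higher than 0.218 FPKM in blastocysts. Padi6, a component of the oocyte lattices, went the other way at 1.23 ± 0.28, with 5.3 and 3.76 FPKM in wild-type, against 9.37 and 8.98 in Tet3-null blastocysts.

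DNA replication genes (61 tested) had a stage median of 0.27, with 11 positive and 3 negative. Under the scalings it was 0.12 (7 positive, 4 negative) and 0.13 (7 and 2), and without Tet3-null 2-cell replicate 2 it was 0.18. Rfc4, a clamp-loader subunit, was at 15.3 and 16.5 against 9.01 and 5.81 FPKM at 2 cells and at 158 and 149 against 179 and 185 in blastocysts, whereas Rpa3, of the single-strand binding complex, had -0.71 ± 0.17. Genes of the DNA methylation machinery (36 tested) stood at 0.079 and mitosis genes (52 tested) at 0.050, and both turned sign under the scalings, to -0.075 and -0.042 and to -0.12 and -0.023. They also turned without 1 library: methylation genes stood at -0.014 without Tet3-null 2-cell replicate 1 and mitosis genes at -0.089 without replicate 2. The 2-cell-stage genes (44 tested) stood at -0.0031, at -0.19 and -0.13 under the scalings, and between -0.11 and 0.081 with 1 library left out. Cytosolic ribosomal proteins (76 tested) stood at 0.17, against 0.14 for all members. Their median was 0.0015 and 0.19 under the scalings, 0.34 without Tet3-null 2-cell replicate 1, 0.040 without replicate 2, and 0.29 and 0.087 without wild-type 2-cell replicates 1 and 2. The p53 target and apoptosis list (37 tested) stood at 0.23, with 5 positive and 0 negative, and that of glycolysis, pyruvate and citric acid cycle (43 tested) at 0.21, with 8 and 4. Under the scalings the first was at 0.17 and 0.14, and the second at 0.061 and -0.0072, a turn of sign. The p53 median was 0.12 without Tet3-null 2-cell replicate 2 and 0.36 without Tet3-null blastocyst replicate 2. The cytoskeleton list (44 tested) stood at 0.14, at 0.038 and 0.021 under the scalings, and between 0.055 and 0.21 with 1 library left out. Germline genes under promoter methylation (50 tested) stood at 0.073 and turned to -0.087 and -0.060 under the scalings, and junction and blastocoel genes (38 tested) at 0.048 and turned to -0.038 and -0.078. With 1 library left out these ran from -0.021 to 0.15 and from -0.044 to 0.18. The 12 tested X inactivation and Y-linked genes had a stage median of 1.10, with 5 positive and 3 negative, and of 1.55 and 0.66 without Tet3-null 2-cell replicates 1 and 2; the Y-linked sums of the libraries are given above.

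Markers of other cell types moved too. Of 28 markers of blood and other somatic cells, 8 were tested. The summed level of all 28 was 15.5 and 17.1 FPKM in Tet3-null, against 32.3 and 28.9 in wild-type 2-cell embryos. In blastocysts it was 93.3 and 89.2 against 118.4 and 130.3, Tet3-null first. Most of the blastocyst sum was Apoa1, an apolipoprotein, at 70.9 and 64.3 FPKM in Tet3-null against 102.4 and 117.1 in wild-type. The median blastocyst difference of the 8 tested markers was 0.30. Hba-a2, an alpha globin gene, had a stage difference of 1.75 ± 0.31, and Apoa1 one of -1.68 ± 0.31. The markers Ptprc, Hbb-b1, Hba-a1 and Alb did not exceed 0.0209 FPKM, and Col1a1 did not exceed 1.07. Pecam1, another of these markers, was at 5.45 and 4.12 FPKM in wild-type, against 1.58 and 3.46 in Tet3-null at 2 cells. In blastocysts it was at 7.43 and 6.08 against 9.17 and 9.75. Of 22 cumulus and granulosa markers, 6 were tested. The sums were 91.8 and 118.3 FPKM in Tet3-null, against 164.7 and 139.1 in wild-type 2-cell embryos, and 622.5 to 716.3 in blastocysts. Much of them was Gja1, which is also on the junction and blastocoel list. It was at 56.5 and 57.6 FPKM in Tet3-null, against 88.7 and 84 in wild-type 2-cell embryos, and at 574 to 678 in blastocysts. The sums are thus no reading of cumulus or granulosa cells alone. Cyp19a1, Fshr, Foxl2 and Has2 did not exceed 0.765 FPKM in any library, and Star did not exceed 0.837. Of 24 sperm markers, 11 were tested, and Prm2, a protamine, was at 2.47 and 4.43 FPKM in wild-type, against 8.52 and 17.1 in Tet3-null at 2 cells, while the sums overlapped. Their part in the other results was not tested.

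**Figure D5:**
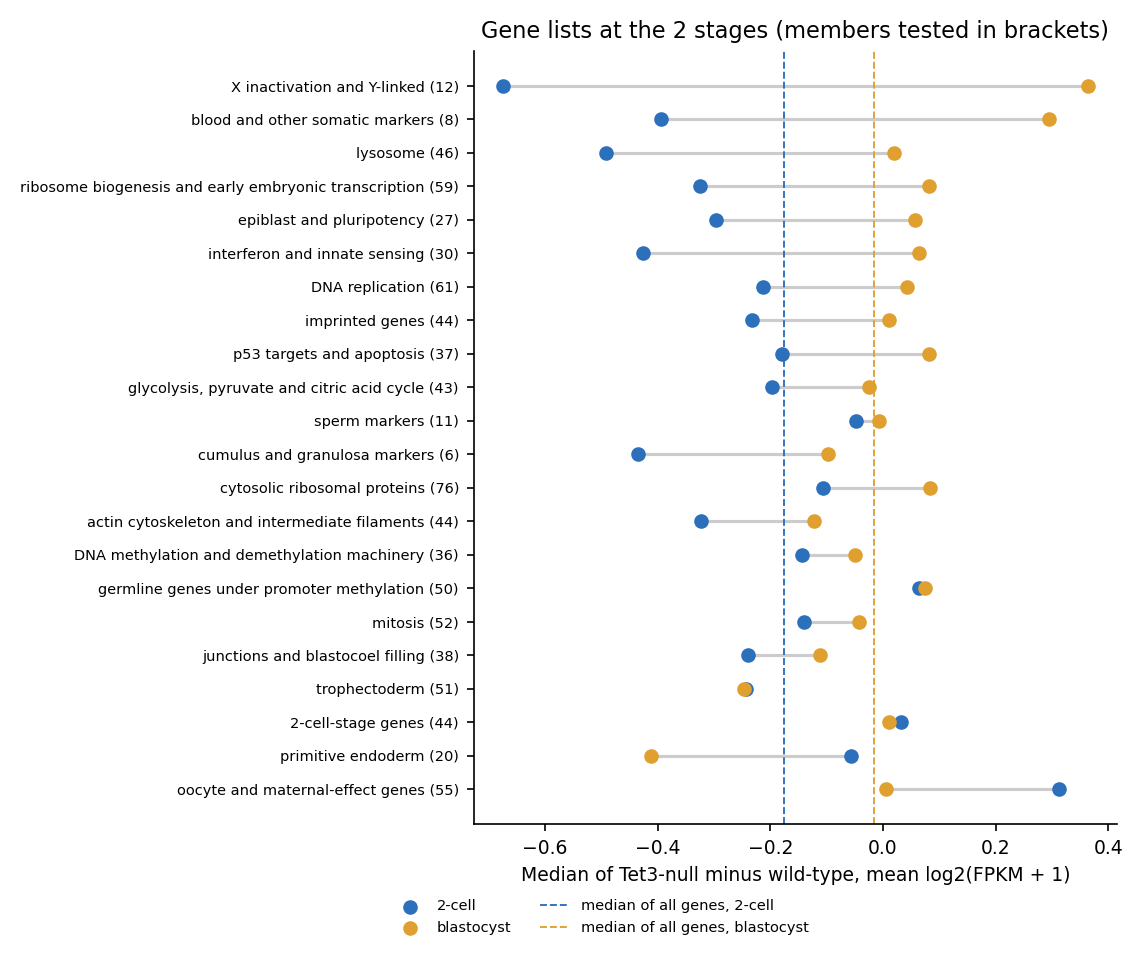
Median Tet3-null minus wild-type difference in mean log2(FPKM + 1) (x axis) of each gene list (y axis, tested genes in brackets) at the 2-cell stage (blue) and in blastocysts (orange), ordered by the median stage difference of their genes. Dashed lines mark the medians of all 13370 members, -0.18 and -0.016. The lysosome list moves from -0.49 to 0.019, oocyte genes from 0.31 to 0.0052, and primitive endoderm genes lie lower in blastocysts.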

How the data were processed

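The deposited values are FPKM per gene for 8 libraries. Per the submitters' processing notes, the authors used Cufflinks 2.2.0, TopHat2 2.0.10 and Bowtie2 2.1.0 with the mm9 mouse genome; settings and gene annotation: not given in the sources used here. Read totals are unknown, so no counting interval is given. All 8 libraries were fitted together in limma 3.58.1 (R 4.3.3) on log2(FPKM + 1), a scale that understates changes of low genes, with 4 group means and two-sided moderated tests (trended prior; 4 residual degrees of freedom, 3.07 prior). The table held 13549 genes of at least 1 FPKM in 2 or more libraries, including 179 Mir and Snor entries that are in the adjustment but are not members. The script was tested on simulated data. Permutation of 2 against 2 libraries cannot reach 0.05 and was not used. Named were the Tet genes, called genes and, by size or p within each pattern and list, the leading ones, with at least 5 FPKM in a group for stage differences and in wild-type blastocysts for 2-cell calls; gene models without a proper name were left out of the stage-difference names. Of 981 entries in 22 lists, 9 were not matched and 23 were matched by synonym. Members and lists were chosen with earlier results of these data known. Alternatives changed the pseudocount, filter, scaling, trend, weights and block, and left out each library. Reference tables are of GRCm38.p6, so gene coordinates other than those of the shown windows are not given. A gene that the naming rule picks is not reported here.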

Additional observations from a re-analysis of the deposited data

Results flagged for a closer look

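A difference between the stages passed the test for 6 genes. The stage difference was 2.82 for Calb2, 2.06 for Ergic3, 2.31 for Fcgrt, 2.84 for Kcne3 and 1.99 for Tmsb15b1, and -3.12 for Defb13, all on the log2(FPKM + 1) scale with 2 libraries a group. Defb13 passed the filter only through the group where it was high.

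Outside the 13370 members, 13 of the 179 tested Mir and Snor entries were called for the stage difference (7.26%, against 0.0449% of the members). Their adjusted p-values take part in the adjustment of the whole table.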

How the results depend on the processing

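The 18 alternatives changed 1 choice each. Genes called for the stage difference (6 in all members) numbered 13 with a pseudocount of 5, 23 with no filter, 12 with a filter of 5 FPKM, 1 with Mir and Snor entries out of the fit, and 0 to 1689 with 1 library left out. Genes called at 2 cells (361) numbered 236 with a pseudocount of 0.1, 170 under median-of-ratios scaling, 190 under quantile normalization, 566 with Mir and Snor entries out, 4 with limma array weights (0.322 for Tet3-null 2-cell libraries, 2.09 for Tet3-null blastocysts) and 1 to 3420 with 1 library left out. Genes called in blastocysts (1) numbered 2 with a pseudocount of 0.1 or 5, 66 with array weights, and 0 to 2 with 1 library left out. The median blastocyst difference of genes low at 2 cells (0.0029) was 0.041 and 0.037 under the scalings, 0.095 with array weights, and -0.14 to 0.099 with 1 library left out. The median 2-cell difference of genes lower in blastocysts (-0.25) was -0.36 and -0.092 with pseudocounts of 0.1 and 5, -0.45 with a filter of 5 FPKM, -0.16 and -0.026 under the scalings, and -0.35 to -0.18 with 1 library left out. That of genes higher in blastocysts (-0.32) was -0.053 with a pseudocount of 5 and -0.55 to -0.10 with 1 library left out. Apart from the fewer samples where a library is left out and the fewer entries adjusted for, the cause was not tested.

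Same-numbered libraries did not deviate together (correlations of -0.076 to 0.018). With 2 libraries a group, this cannot settle whether the numbers pair the samples. With the replicate number as a block, 1 gene was called for the stage difference, 25 at 2 cells and 1 in blastocysts, and the median blastocyst difference of the genes low at 2 cells was 0.027.

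Of 95 named genes, 90 kept the sign of the stage difference under every alternative. With a pseudocount of 5 it turned for Adam15 (-0.16), Fbln1 (-0.11), Gipc1 (-0.061), Gm4926 (-0.080) and Spsb4 (-0.015). Gm4926 also turned under median-of-ratios scaling (-0.058), quantile normalization (-0.066), without Tet3-null 2-cell replicate 2 (-0.035) and without Tet3-null blastocyst replicate 1 (-0.088), and reached 0.29 with another library left out. With 2 libraries a group the median standard error of a stage difference was 0.32, and depth is unknown.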

Other observations

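The members with the widest stage differences were short or repeated transcripts that no test called. LOC100861570 had -6.61 ± 3.90 (SE), from 141 and 0 FPKM in Tet3-null 2-cell embryos and 0 in both wild-type ones. Its blastocyst levels were 115 and 102 FPKM (wild-type) against 0 and 178 (Tet3-null). Scarna8 had -5.23 ± 2.33. In both, libraries of at least 1 group differed by their whole range, and for LOC100861570 this held for the Tet3-null groups of both stages. They were picked after their values were seen.

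Of the members, 1686 carry predicted or clone-based names, as do 39 of the 284 called low and 17 of the 77 called high at the 2-cell stage.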
